A study of Mus musculus with 6 samples.

Results

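The mRNAs described here encode the subunits of the respiratory chain and of ATP synthase, and they come from 2 genomes. Members were taken by symbol. The nuclear-encoded members were the Ndufa, Ndufb, Ndufc, Ndufs and Ndufv genes, Sdha to Sdhd, the Uqcr genes, the Cox4 to Cox8 families and the Atp5 genes, and the mitochondrially encoded members were the mt-Nd, mt-Co, mt-Atp and mt-Cytb genes. Cox6a2 and symbols of pseudogenes were left out. In this way 90 of the 15443 genes of the table were chosen, of which 79 are nuclear-encoded and 11 mitochondrially encoded. The nuclear-encoded members count 36 genes in complex I, 4 in complex II, 8 in complex III, 14 in complex IV and 17 in complex V. The mitochondrially encoded members count 6 in complex I, 1 in complex III, 2 in complex IV and 2 in complex V, and mt-Co2 and mt-Nd4l were not analysed here.

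The midkine group held bone marrow cells of WT C57BL/6J mice that grew for 3 days with FLT3LG at 50 ng/ml and, over the same days, recombinant human midkine at 10 ng/ml (libraries midkine 3, 4 and 5). The control group held the same kind of cells, grown for 3 days with FLT3LG at 50 ng/ml and no midkine (libraries control 1, 2 and 4). FLT3LG is the cytokine that drives dendritic cells to develop from marrow progenitors, and midkine is a growth factor, released by cells, with affinity for heparin-like sugar chains. The labels name no sort of the cells before RNA extraction and do not state which mice or cultures each library came from, so that p-values reflect the spread among these libraries alone, possibly of technical origin.

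The respiratory chain passes electrons from NADH (through complex I) and succinate (through complex II) to ubiquinone, on through complex III and cytochrome c, and through complex IV to oxygen. Complexes I, III and IV pump protons across the inner mitochondrial membrane, and complex V, the ATP synthase, uses their return flow to make ATP. Complex II is built from nuclear-encoded subunits alone, while each of the other complexes joins a few hydrophobic subunits made inside the mitochondrion to many subunits made in the cytosol and imported, so that the work of both genomes meets in the same enzyme.

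Midkine 5 stood apart from the other 5 libraries over all genes. The first principal component (57.1% of the variance) gave it a score of 86.0, while the other 5 libraries lay between −28.2 and 1.94. Values are therefore given for each library, and tests of the members that passed are given with and without it. Libraries held 6042165 to 7233960 reads with midkine and 5985684 to 6415043 reads in the controls. Values are normalized counts per gene from a kit made to read near the 3′ ends of mRNAs, and they are not scaled to gene length.

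In 2 of the 3 midkine libraries the mitochondrially encoded mRNAs were at control level, and in midkine 5 they were much lower. Together the 11 mRNAs took 0.491, 0.524 and 0.195% of reads in midkine 3, 4 and 5, against 0.477, 0.569 and 0.477% in control 1, 2 and 4. The Wilson 95% interval in midkine 5 was 0.192 to 0.198%, which covers counting error only. The nuclear-encoded members were higher in that library, taking 1.12, 1.10 and 1.54% of reads in midkine 3, 4 and 5, against 1.12, 1.04 and 1.06% in control 1, 2 and 4. In limma with equal library weights, fitted over all 6 libraries and all genes, no member passed a Benjamini-Hochberg adjusted p under 0.05, and neither did any other gene (0 of 13543 tested, 0%). At an unadjusted p under 0.05, 1404 genes (10.4%) lay higher with midkine and 1259 (9.3%) lower. On the same 6 libraries edgeR called 9 genes (0.0738%) and DESeq2 678 (5.58%), and neither called a member. Of the members, 8 nuclear-encoded ones lay higher and none lower at an unadjusted p under 0.05, and of the mitochondrially encoded ones 1, mt-Nd6, lay lower.

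The library kit primes on poly(A) and reads the end of each transcript. The ends of the annotated mitochondrial genes are shown first. They need not be the ends of the mRNAs, whose positions were not examined. These are the last 30 bases of the annotated genes on GRCm38, 5′ to 3′, with the stop codon, or the part of it that the gene holds, in capitals.
mt-Nd1, chrM:3678-3707, plus strand: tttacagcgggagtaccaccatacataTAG
mt-Nd2, chrM:4922-4951, plus strand: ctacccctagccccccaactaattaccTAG
mt-Nd4, chrM:11515-11544, plus strand: gtccaaaactaattacaggcctgacaataT
mt-Nd5, chrM:13536-13565, plus strand: attatcttatactcaattaatctcgagTAA
mt-Nd6, chrM:13552-13581, minus strand: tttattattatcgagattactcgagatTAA
mt-Cytb, chrM:15259-15288, plus strand: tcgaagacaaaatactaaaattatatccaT
mt-Co3, chrM:9361-9390, plus strand: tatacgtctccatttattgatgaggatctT
mt-Atp8, chrM:7940-7969, plus strand: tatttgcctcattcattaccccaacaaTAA
Of the 11 genes, 3 (mt-Nd4, mt-Cytb and mt-Co3) end in a single T of an incomplete stop codon, which in mammalian mitochondria is completed to UAA by the poly(A) tail itself. The mt-Nd6 gene is the only one of the 11 on the minus strand, and its annotated end overlaps the end of mt-Nd5 on the other strand. The strand setting of the counting is not given in the sources used here, so reads of mt-Nd5 and mt-Nd6 in that stretch cannot be told apart.

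Subunit mRNAs of complex I from mitochondrial DNA encode the core of its proton-pumping membrane arm. The level of mt-Nd2, the highest of the 11 in the controls, was 7255, 7778 and 1443 normalized counts in midkine 3, 4 and 5, against 7774.5, 9374 and 9137 in control 1, 2 and 4. Midkine 5 was 6.07-fold below the control mean, while midkine 3 lay below the lowest control and midkine 4 level with it. mt-Nd5 was at 2402, 2749 and 207 normalized counts in midkine 3, 4 and 5, against 2173, 3039 and 2825 in control 1, 2 and 4, which put midkine 5 12.9-fold below the control mean and the other midkine libraries within the control range. mt-Nd4 was at 7319.9, 7100.1 and 2955 normalized counts in midkine 3, 4 and 5, against 6574.5, 8672 and 5718 in control 1, 2 and 4. The gap of midkine 5 was smaller for this mRNA (2.36-fold below the control mean) and for mt-Nd3 (2.63-fold below). mt-Nd3 was at 287, 268 and 84.4 normalized counts in midkine 3, 4 and 5, against 248, 243 and 176 in control 1, 2 and 4. Its midkine 3 and 4 values lay above all controls, and its adjusted p in limma without midkine 5 was 0.127. mt-Nd1 was the least reduced of the plus-strand complex I mRNAs, at 6163, 6743 and 3434 normalized counts in midkine 3, 4 and 5, against 5458, 5920.2 and 5772.5 in control 1, 2 and 4. Its midkine 3 and 4 values lay above all 3 controls and its midkine 5 value below them.

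The remaining complex I gene, mt-Nd6, was low in every library and was the single mitochondrial mRNA whose groups did not overlap. It was at 27.1, 49.6 and 39.9 normalized counts in midkine 3, 4 and 5, against 59.5, 51.1 and 91.7 in control 1, 2 and 4. All midkine values were below all control values, as they were for 15.3% of all genes tested (15.5% lay above). The log2 fold change over 6 libraries was −0.78 ± 0.31 (SE), with an adjusted p of 0.223 in limma. Without midkine 5 mt-Nd6 fell, with a log2 fold change of −0.82 ± 0.27 (SE) and an adjusted p of 0.0445. In that fit 8.53% of all genes fell and 9.86% rose. Over all settings tried the adjusted p of mt-Nd6 ranged from 0.0445 to 0.526.

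In complex III, cytochrome b, the subunit that carries both ubiquinone sites, kept its level in midkine 5. mt-Cytb was at 3364, 4509 and 3603.5 normalized counts in midkine 3, 4 and 5, against 2959, 3675.5 and 2592 in control 1, 2 and 4. It was the single mitochondrial mRNA with a log2 fold change above 0 over 6 libraries, at 0.32 ± 0.19 (SE), and the groups overlapped. The adjusted p in limma was 0.369 with all libraries, 0.0836 without midkine 5 and 0.00153 with array weights, which give each library a weight by its spread (0.00153 to 0.699 over all settings).

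In complex IV, mt-Co1 encodes the subunit that holds the site of oxygen reduction. It was at 964, 1315 and 604 normalized counts in midkine 3, 4 and 5, against 1084, 1298 and 1467.5 in control 1, 2 and 4. mt-Co3 was at 727, 789.6 and 178 normalized counts in midkine 3, 4 and 5, against 930.3, 929.6 and 585 in control 1, 2 and 4. Midkine 5 was the lowest library for both genes, 2.13-fold below the control mean for mt-Co1 and 4.58-fold below it for mt-Co3, and for mt-Co1 midkine 4 lay within the control range.

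In complex V, mt-Atp8 and mt-Atp6 are made from a single mRNA whose reading frames overlap by 43 bases. That stretch, chrM:7927-7969 on the plus strand of GRCm38, is printed with the start codon of mt-Atp6 in capitals.
mt-Atp8 and mt-Atp6: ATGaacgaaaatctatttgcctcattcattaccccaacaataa
mt-Atp8 was at 908, 1129.5 and 92.6 normalized counts in midkine 3, 4 and 5, against 1037, 1408 and 1206 in control 1, 2 and 4, and midkine 5 was 13.1-fold below the control mean. mt-Atp6 was at 948, 993 and 169 normalized counts in midkine 3, 4 and 5, against 992, 996 and 621 in control 1, 2 and 4, and midkine 5 was 5.15-fold below the control mean. Both genes gave overlapping groups. How the authors counted reads that lie in both genes is not given in the sources used here. The mt-Atp8 gene ends at chrM:7969, inside the shared mRNA, and mt-Atp6 at chrM:8607. The gaps of the 2 genes therefore describe different stretches of a single mRNA, although each gene is counted as an mRNA of its own among the 11.

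**Figure D1:**
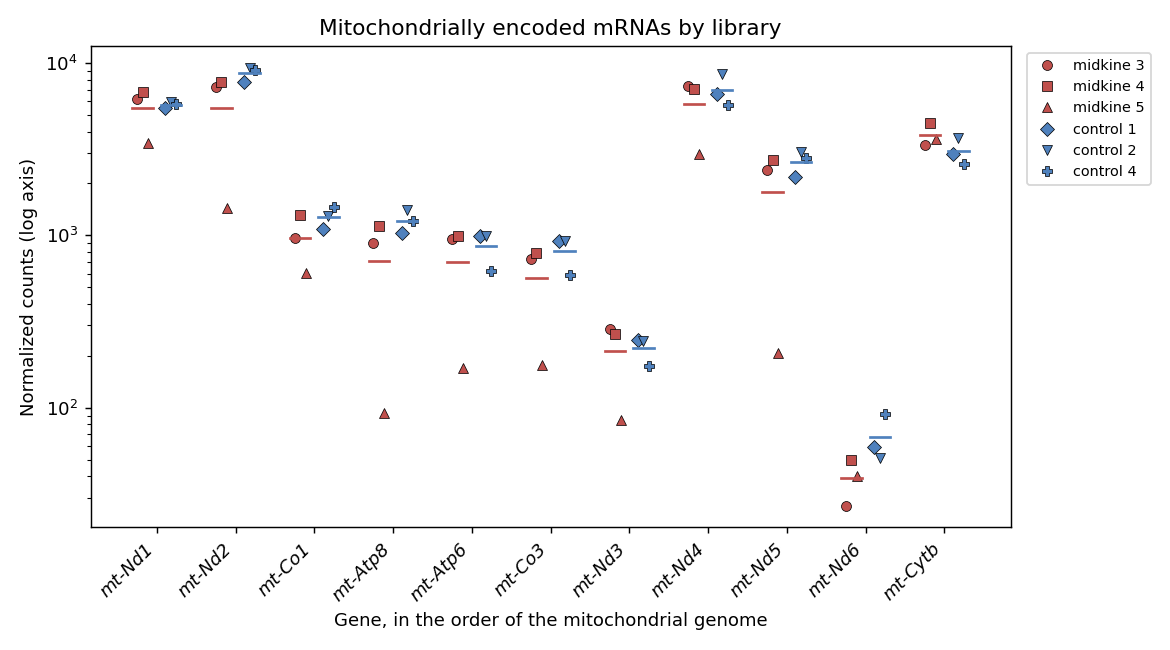
Normalized counts (log axis) of the 11 mitochondrially encoded mRNAs, in the order of the mitochondrial genome; each point is a library and each bar a group mean, with the midkine libraries left of the control libraries for each gene. Midkine 5 lies below the other libraries for 9 of the 11 genes, and not for mt-Nd6 and mt-Cytb.

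Across the group, midkine 5 had the lowest value of the 6 libraries for 9 of the 11 mitochondrial mRNAs (81.8%), where it was lowest for 33.7% of all genes tested. The median difference of the 11 mRNAs from their control means was −0.13, 0.05 and −1.37 (log2) in midkine 3, 4 and 5, against −0.07, 0.20 and −0.00 in control 1, 2 and 4. The median log2 fold change over 6 libraries was −0.65, and without midkine 5 it was −0.046, beside −0.0040 and −0.0036 for all genes tested. Other scalings between libraries gave medians from −0.72 to −0.64. A low value in midkine 5 was shared by the mitochondrial ribosomal RNAs, which took 4.12, 4.69 and 0.377% of reads in midkine 3, 4 and 5, against 4.91, 6.16 and 5.67% in control 1, 2 and 4. In midkine 3 and 4 the share of the ribosomal RNAs also lay below all controls, by less. The 14 mitochondrial tRNA genes with values took 0.00522, 0.00488 and 0.00261% of reads in midkine 3, 4 and 5, against 0.00476, 0.00522 and 0.00502% in control 1, 2 and 4. The labels give no RNA integrity for single libraries, and its part in the midkine 5 values was not tested.

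Stretches rich in A inside a transcript can prime a poly(A)-primed library, so the 20 bases with most A in each mitochondrial mRNA were found. They are printed for the genes most and least reduced in midkine 5, with A in capitals.
mt-Atp8, chrM:7891-7910, plus strand: AAcAAccAtAAAAgtAAAAA
mt-Nd5, chrM:12623-12642, plus strand: ccAAAAcgAcAtcAAAAAAA
mt-Nd2, chrM:4040-4059, plus strand: AtActAAtcAAcAAAAAAAA
mt-Nd6, chrM:13830-13849, minus strand: tActgAggAAtAtccAgAgA
mt-Cytb, chrM:14148-14167, plus strand: AcAAAcAtAcgAAAAAcAcA
These windows hold 14 A in mt-Atp8, 13 in mt-Nd5, 14 in mt-Nd2, 8 in mt-Nd6 and 13 in mt-Cytb. The mt-Cytb mRNA itself was not lower in midkine 5. Across the 11 genes the number of A in the window had a Pearson correlation of −0.44 and a Spearman correlation of −0.50 with the log2 difference of midkine 5 from the control mean. These points share a library and a genome, and the values are a description. The part of priming at these windows in the midkine 5 values was not tested.

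Set against each other, the reads of the 2 genomes gave a mitochondrial to nuclear ratio of 0.437, 0.476 and 0.127 in midkine 3, 4 and 5, against 0.427, 0.546 and 0.451 in control 1, 2 and 4. The ratio depended on the complex, being highest in complex I at 1.12, 1.18 and 0.264 in midkine 3, 4 and 5, against 1.09, 1.41 and 1.21 in control 1, 2 and 4. In complex III it was 0.420, 0.573 and 0.293 in midkine 3, 4 and 5, against 0.354, 0.463 and 0.314 in control 1, 2 and 4. In complex IV it was 0.101, 0.124 and 0.0355 in midkine 3, 4 and 5, against 0.126, 0.146 and 0.131 in control 1, 2 and 4. This was the single complex in which the groups did not overlap, though midkine 4 lay close to control 1. The ratio of complex IV holds no mt-Co2, and that of complex I no mt-Nd4l. In complex V the ratio was 0.0889, 0.0982 and 0.00805 in midkine 3, 4 and 5, against 0.0951, 0.120 and 0.0880 in control 1, 2 and 4. Midkine 5 was the lowest library in each of these ratios, and in complex III it was close to control 4. In a bulk sample, fewer cells of a type and less RNA per cell cannot be told apart.

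**Figure D2:**
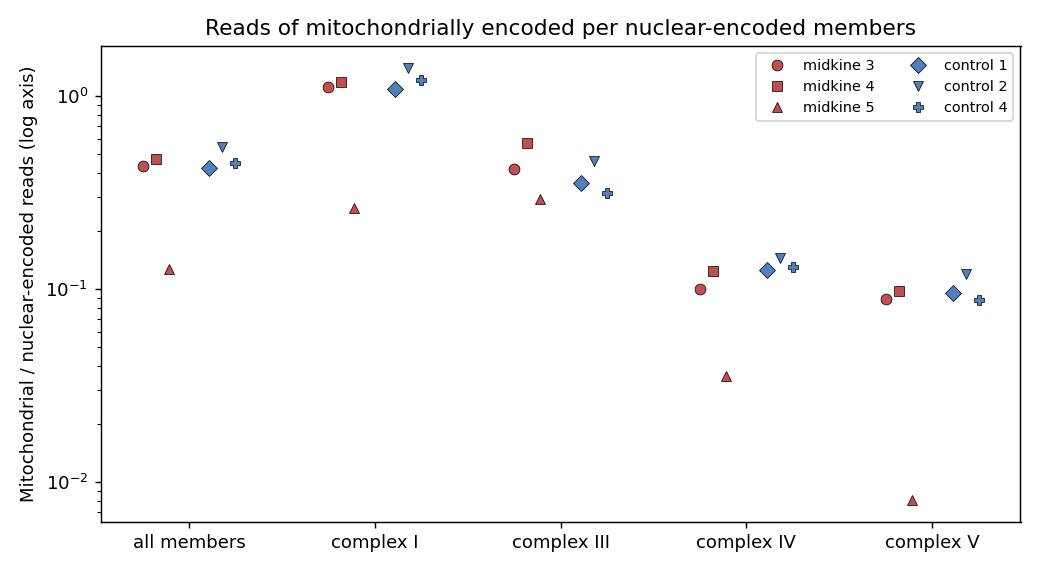
Reads of mitochondrially encoded members divided by reads of nuclear-encoded members (log axis), for all members and for complexes I, III, IV and V; each point is a library, with midkine left of control. Midkine 5 is the lowest library in every ratio, at 0.127 for all members against 0.427 to 0.546 in the controls.

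Most nuclear-encoded members had a log2 fold change above 0, and midkine 5 was the library in which they were highest. Of the 79, 78 passed the filter on low values and Cox4i2 did not. The log2 fold change was above 0 for 63 of 78 (80.8%) over 6 libraries and for 54 of 78 (69.2%) without midkine 5, where it was above 0 for 49.6% of all genes in either fit. Groups did not overlap for 26 members, of which 23 (29.5%) were higher and 3 (3.85%) lower with midkine, beside the 15.5% and 15.3% of all genes given above. Midkine 5 was the highest of the 6 libraries for 56 of 78 (71.8%) and the lowest for 9 (11.5%), against 34.6% and 33.7% of all genes. The midkine 3 and 4 values were both above all controls for 26 (33.3%) and both below for 5 (6.41%), against 23.8% of all genes in each direction. The median difference from the control mean was 0.08, 0.07 and 0.54 (log2) in midkine 3, 4 and 5, against 0.04, −0.02 and −0.02 in control 1, 2 and 4. The median log2 fold change was 0.25 with all libraries and 0.074 without midkine 5, and other scalings gave 0.18 to 0.26 over 6 libraries.

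**Figure D3:**
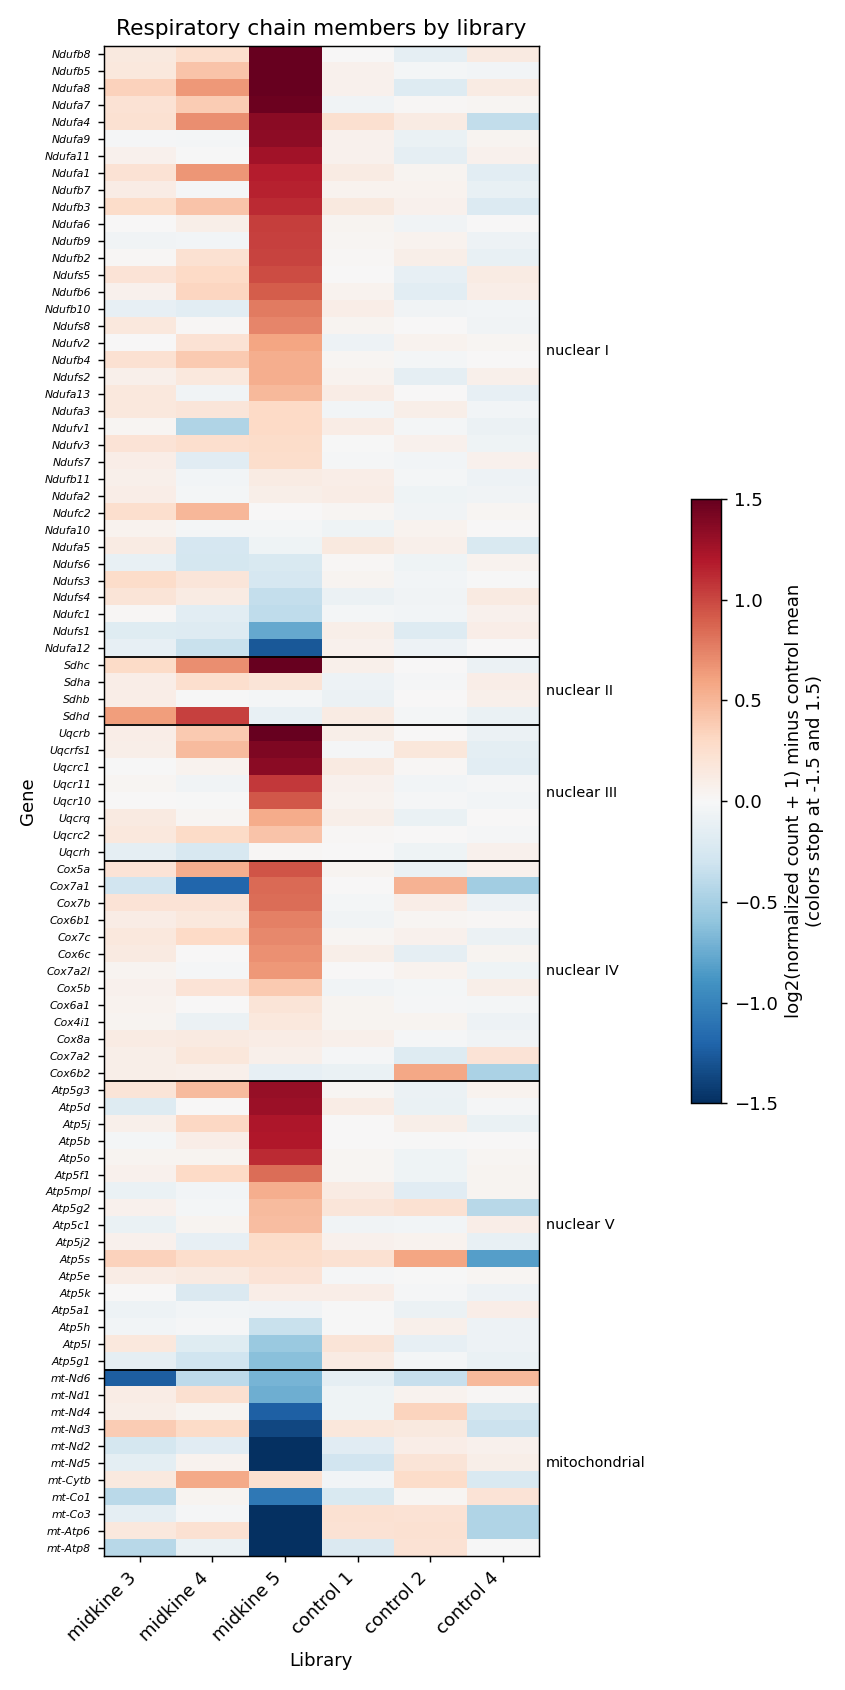
Difference of each member's log2(normalized count + 1) from its control mean (colour, which stops at −1.5 and 1.5) in the 6 libraries, midkine left of control, with members grouped by complex and genome. The midkine 5 column holds the strongest colours, mostly above the control mean for nuclear-encoded members and below it for mitochondrially encoded ones.

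Without midkine 5, limma called 8 members, 7 nuclear-encoded ones that rose (8.97% of 78, against 9.86% of all genes) and mt-Nd6, which fell (8.53% of all genes fell). The share of nuclear-encoded members that rose was near that of all genes, and 0 fell. At an unadjusted p under 0.05, 13 nuclear-encoded members lay higher and 1 lower in that fit, beside 16% of all genes higher and 15.3% lower. Called on the same 5 libraries by edgeR were the same 8 members, beside 20.2% of all genes. Limma with array weights called 25 nuclear-encoded members (21 higher and 4 lower with midkine) and 1 mitochondrially encoded one, mt-Cytb, over 6 libraries, beside 37.5% of all genes. The 7 genes that rose are Ndufa1, Ndufa8 and Ndufc2 of complex I, Sdhc and Sdhd of complex II, Cox5a of complex IV and Atp5g3 of complex V. None of the 8 passed in limma with equal library weights over all 6 libraries, while 7 of them were among those called with array weights. With array weights the median log2 fold change was 0.070 for nuclear-encoded and 0.026 for mitochondrially encoded members. These medians lay nearer to those without midkine 5 (0.074 and −0.046) than to those with equal weights (0.25 and −0.65). The calls with array weights are therefore no separate support from all 6 libraries.

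**Figure D4:**
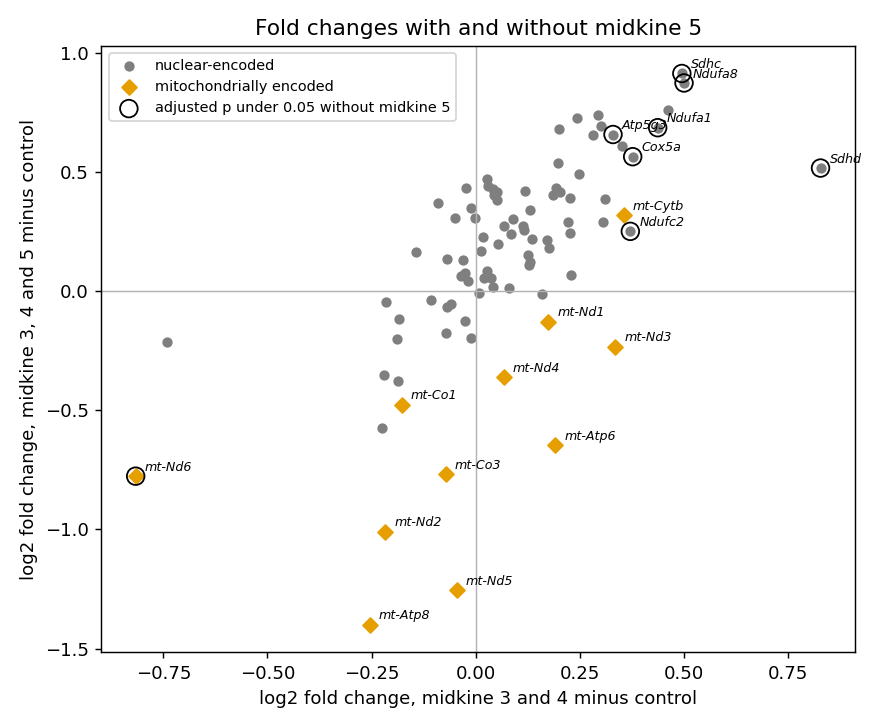
Log2 fold change of each member over all 6 libraries (vertical axis) against that without midkine 5 (horizontal axis), each as midkine minus control; the 8 ringed points had an adjusted p under 0.05 without midkine 5. The mitochondrially encoded members other than mt-Nd6 are lower, and most nuclear-encoded members higher, on the vertical than on the horizontal axis.

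In complex I, the nuclear genes encode the remaining core subunits of the matrix arm and many accessory subunits. The groups did not overlap for 12 of 36, of which 10 (27.8%) were higher and 2 (5.56%) lower with midkine, beside 15.5% and 15.3% of all genes. The median log2 fold change was 0.27 over 6 libraries and 0.10 without midkine 5. Ndufa1, a small accessory subunit of the membrane arm needed for assembly, was at 478, 652 and 937 normalized counts in midkine 3, 4 and 5, against 448, 423 and 369 in control 1, 2 and 4. All midkine libraries were above all controls, with the mean at 689 ± 232 with midkine and 413.5 ± 40.6 in the controls (SD, n = 3 each). Its log2 fold change was 0.69 ± 0.24 (SE) with an adjusted p of 0.19 over 6 libraries in limma, and 0.44 ± 0.13 (SE) with 0.0287 without midkine 5. The range of its adjusted p over all settings was 0.000636 to 0.473.

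Ndufa8, an accessory subunit on the side of the intermembrane space, was at 221, 273 and 536 normalized counts in midkine 3, 4 and 5, against 182, 152 and 189 in control 1, 2 and 4. The groups did not overlap, and midkine 5 was 3.07-fold above the control mean. In limma its log2 fold change was 0.87 ± 0.31 (SE) with an adjusted p of 0.19 over 6 libraries, and 0.50 ± 0.14 (SE) with 0.0212 without midkine 5, with a range of 0.000921 to 0.449 over all settings. Ndufc2, a membrane arm subunit named after its values were seen, was at 707, 839 and 599 normalized counts in midkine 3, 4 and 5, against 607, 572 and 608 in control 1, 2 and 4. It rose without midkine 5, and midkine 5 itself lay at control level. Its adjusted p in limma was 0.0227 without midkine 5 and 0.411 with all libraries, and ranged from 0.00145 to 0.685 over all settings.

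Other complex I members did not pass in limma with equal library weights, with or without midkine 5. Array weights called 13 of the 36 in either direction, beside 37.5% of all genes. Among the 13 were Ndufb3 (adjusted p 0.00912) and Ndufa4 (0.00347). Ndufb3, a subunit of the membrane arm, was at 387, 431 and 697 normalized counts in midkine 3, 4 and 5, against 353, 333 and 278 in control 1, 2 and 4, with no overlap. Ndufb8, another membrane arm subunit, showed a difference carried mostly by midkine 5, at 1577, 1704 and 4448 normalized counts in midkine 3, 4 and 5, against 1431, 1302 and 1562 in control 1, 2 and 4. Ndufa4, which the symbol places here and which is now known as a subunit of complex IV, was at 234, 323 and 512 normalized counts in midkine 3, 4 and 5, against 236, 218 and 154 in control 1, 2 and 4. Its midkine 3 value lay inside the control range. Ndufa2, an accessory subunit of the NADH-binding module and the highest of the complex I members in the controls, was at 2096, 1915 and 2073 normalized counts in midkine 3, 4 and 5, against 2112, 1875 and 1881 in control 1, 2 and 4, with overlapping groups.

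The 2 complex I members below all controls, named after their values were seen, both belong to the matrix arm. Ndufa12 was at 715, 618 and 321 normalized counts in midkine 3, 4 and 5, against 814, 738 and 779 in control 1, 2 and 4. Ndufs6 was at 733, 659.8 and 675 normalized counts in midkine 3, 4 and 5, against 800.0, 757 and 822 in control 1, 2 and 4. The gap of Ndufs6 was small in each midkine library, while that of Ndufa12 was largest in midkine 5. In limma the adjusted p of Ndufa12 was 0.297 over 6 libraries, 0.157 without midkine 5 and 0.0154 with array weights (0.0154 to 0.547 over all settings). That of Ndufs6 was 0.421 over 6 libraries, 0.22 without midkine 5 and 0.0347 with array weights (0.0347 to 0.679 over all settings).

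Complex II, succinate dehydrogenase, also works in the citric acid cycle and consists of a membrane anchor and a catalytic head. Sdhc, an anchor subunit, was at 340.3, 452 and 937 normalized counts in midkine 3, 4 and 5, against 293, 280.2 and 261 in control 1, 2 and 4. All midkine libraries were above all controls and midkine 5 was 3.37-fold above their mean. In limma its log2 fold change was 0.91 ± 0.33 (SE) with an adjusted p of 0.199 over 6 libraries, and 0.49 ± 0.13 (SE) with 0.0138 without midkine 5, with a range of 0.000386 to 0.467 over all settings. Sdhd, the other anchor subunit, was at 146, 192 and 87.1 normalized counts in midkine 3, 4 and 5, against 103, 92.0 and 87.8 in control 1, 2 and 4. Midkine 3 and 4 were above all controls and midkine 5 was just below them, so the groups overlapped. Sdhd had the largest change of the nuclear-encoded members without midkine 5, at 0.83 ± 0.16 (SE) on the log2 scale with an adjusted p of 0.0018 in limma, but 0.52 ± 0.28 (SE) with 0.341 over 6 libraries. Its adjusted p ranged from 7.24e-05 to 0.599 over all settings.

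Of the catalytic head, Sdha, the flavoprotein that oxidises succinate, was at 857, 950.1 and 917 normalized counts in midkine 3, 4 and 5, against 757, 791 and 854 in control 1, 2 and 4. Its groups lay just apart, and the adjusted p in limma was 0.47 over 6 libraries, 0.262 without midkine 5 and 0.0423 with array weights (0.0423 to 0.75 over all settings). Sdhb, the iron-sulfur subunit, gave 53.9% of the control counts of this complex. It was at 1464, 1363 and 1339.7 normalized counts in midkine 3, 4 and 5, against 1292, 1375.5 and 1451 in control 1, 2 and 4, with overlapping groups and a log2 fold change of 0.02 ± 0.13 (SE), which turned negative under 3 other scalings.

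In complex III 0 of 8 nuclear-encoded members passed in limma with equal library weights, with or without midkine 5, or in edgeR without it, while 1 had an unadjusted p under 0.05 without midkine 5. With array weights limma called 3 of the 8 over 6 libraries, all higher with midkine, beside 37.5% of all genes called in either direction. The 3 were Uqcrfs1 (adjusted p 0.00649), Uqcrb (0.0203) and Uqcrc2 (0.0289), whose adjusted p reached 0.552, 0.557 and 0.557 under other settings. The groups of 2 of 8 (25%) did not overlap, both higher with midkine, beside 15.5% of all genes higher and 15.3% lower. Uqcrc2, a core subunit, was at 476, 518 and 575 normalized counts in midkine 3, 4 and 5, against 429.8, 428.5 and 419 in control 1, 2 and 4. Uqcrb, a subunit near the ubiquinone site, was at 539, 662 and 1632 normalized counts in midkine 3, 4 and 5, against 534, 505 and 476 in control 1, 2 and 4. For Uqcrc2 the 3 midkine libraries were close together, and for Uqcrb midkine 5 stood 3.23-fold above the control mean. Uqcrfs1, the Rieske iron-sulfur protein that takes electrons from ubiquinol, was at 264, 345 and 654 normalized counts in midkine 3, 4 and 5, against 244, 278 and 225 in control 1, 2 and 4, with midkine 3 inside the control range. Uqcrh, the hinge protein, gave 53.1% of the control counts of the complex. It was at 3972, 3686 and 4405 normalized counts in midkine 3, 4 and 5, against 4355, 4145 and 4547 in control 1, 2 and 4, and Uqcrq, a small membrane subunit, was at 1002.5, 932 and 1338 in midkine 3, 4 and 5, against 967, 853 and 917 in control 1, 2 and 4. Both gave overlapping groups, and for Uqcrh midkine 3 and 4 lay below all controls. The median difference from the control mean was 0.06, 0.04 and 1.00 (log2) in midkine 3, 4 and 5, the largest midkine 5 value of the 5 complexes, and the median log2 fold change was 0.33 with that library and 0.056 without it.

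In complex IV, 5 of the 13 nuclear-encoded members tested (38.5%) had groups that did not overlap, all higher with midkine. Of all genes, 15.5% were higher and 15.3% lower without overlap. Cox5a, a subunit on the matrix side, was at 1610.5, 2037 and 2673 normalized counts in midkine 3, 4 and 5, against 1429.8, 1305 and 1455 in control 1, 2 and 4. Each midkine library was above each control. In limma its log2 fold change was 0.56 ± 0.20 (SE) with an adjusted p of 0.187 over 6 libraries, and 0.38 ± 0.11 (SE) with 0.0235 without midkine 5, with a range of 0.000686 to 0.45 over all settings. The annotation places exons of Gm26631 on the strand opposite Cox5a, and without a stated strand setting reads of these 2 genes cannot be told apart.

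Of the other complex IV members with no overlap, the small subunit Cox7c was at 377, 415 and 555.5 normalized counts in midkine 3, 4 and 5, against 344, 354 and 318 in control 1, 2 and 4. Cox7b, another small transmembrane subunit, was at 732, 735 and 1137 normalized counts in midkine 3, 4 and 5, against 623, 685 and 606 in control 1, 2 and 4. Cox6b1, on the side of the intermembrane space, was at 1271, 1315 and 1996 normalized counts in midkine 3, 4 and 5, against 1143, 1208 and 1193 in control 1, 2 and 4. In these 3 genes midkine 5 was the highest library, whereas for Cox8a, the general form of subunit VIII, it was the lowest of the midkine libraries. Cox8a was at 2589, 2598 and 2549 normalized counts in midkine 3, 4 and 5, against 2492, 2339 and 2278 in control 1, 2 and 4. Their adjusted p values in limma over 6 libraries were 0.277 for Cox7c, 0.291 for Cox7b, 0.359 for Cox6b1 and 0.611 for Cox8a. Without midkine 5 they were 0.186 for Cox7c, 0.189 for Cox7b, 0.374 for Cox6b1 and 0.371 for Cox8a, and array weights called Cox7c alone of the 4 (0.0296). Cox6c, the highest of the complex in the controls, was at 2991, 2749 and 4403 normalized counts in midkine 3, 4 and 5, against 2915, 2496 and 2812 in control 1, 2 and 4, with overlap in midkine 4.

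Several complex IV subunits come in tissue forms. For the Cox4, Cox6b and Cox7a genes the general form held far more reads than the tissue form in both groups. Cox4i2, the lung and hypoxia form of subunit IV, had 0, 0 and 1 reads in midkine 3, 4 and 5, against 0, 3 and 3 reads in control 1, 2 and 4, where a count of 0 allows up to 3 reads. Cox4i1, the general form, was at 1724, 1576 and 1866 normalized counts in midkine 3, 4 and 5, against 1721, 1712 and 1581 in control 1, 2 and 4. Cox6b2, the testis form of subunit VIb, made up 0.830, 0.796 and 0.453% of the Cox6b1 and Cox6b2 reads in midkine 3, 4 and 5, against 0.801, 1.25 and 0.575% in control 1, 2 and 4. Cox7a1, the heart and muscle form, was at 4.83, 2.11 and 11.8 normalized counts in midkine 3, 4 and 5, against 6.15, 9.20 and 3.94 in control 1, 2 and 4, beside 1505, 1598 and 1494 in midkine 3, 4 and 5, against 1407, 1241.5 and 1637 in control 1, 2 and 4, for Cox7a2, the general form. Cox7a2l, which links complexes III and IV into supercomplexes, made up 56.9, 54.4 and 66.8% of the reads of the 3 Cox7a genes in midkine 3, 4 and 5, against 57.9, 61.6 and 52.8% in control 1, 2 and 4. The groups overlapped in each of these comparisons. Cox6a1, the general form of subunit VIa, was at 1555, 1498 and 1716 normalized counts in midkine 3, 4 and 5, against 1540.5, 1479 and 1472.5 in control 1, 2 and 4, and midkine 4 lay inside the control range. Since Cox6a2 was left out by the rule for members, the forms of subunit VIa were not compared, nor were those of subunit VIII.

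In complex V the genes for subunit c, which forms the rotating ring of the synthase, gave log2 fold changes of either sign. Atp5g1, Atp5g2 and Atp5g3 encode the same mature subunit c behind different import sequences. Atp5g3 was at 3199, 3892 and 6970.1 normalized counts in midkine 3, 4 and 5, against 2869, 2640.5 and 2922 in control 1, 2 and 4, and all midkine libraries were above all controls. In limma its log2 fold change was 0.66 ± 0.27 (SE) with an adjusted p of 0.235 over 6 libraries, and 0.33 ± 0.11 (SE) with 0.0376 without midkine 5, with a range of 0.00259 to 0.485 over all settings. Atp5g1 was at 698, 621 and 497 normalized counts in midkine 3, 4 and 5, against 838, 749.6 and 717 in control 1, 2 and 4. All midkine libraries were below all controls. Its log2 fold change was −0.35 ± 0.17 (SE) with an adjusted p of 0.29 over 6 libraries in limma, and −0.22 ± 0.11 (SE) with 0.174 without midkine 5, with a range of 0.0157 to 0.597 over all settings. Atp5g2 was at 129.5, 121 and 173 normalized counts in midkine 3, 4 and 5, against 142, 146 and 92.7 in control 1, 2 and 4, with overlap.

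As a share of the reads of the 3 genes, Atp5g3 made up 79.4, 84.0 and 91.2% in midkine 3, 4 and 5, against 74.5, 74.7 and 78.3% in control 1, 2 and 4. The mean share was 84.9 ± 5.94% with midkine and 75.8 ± 2.13% in the controls (SD, n = 3 each), and the groups did not overlap. Atp5g1 made up 17.3, 13.4 and 6.51% in midkine 3, 4 and 5, against 21.8, 21.2 and 19.2% in control 1, 2 and 4. Its groups did not overlap either, and the difference was present without midkine 5. These shares were picked after the values were seen and carry no test. Near-identical 3′ ends of other genes with values exist for Atp5g1 (Pdzd2, found with an annotated transcript of 4715 bases) and Atp5g2 (Gm10175). The split of reads with these genes is uncertain for both, and for Atp5g1 the ends of other transcripts were not searched.

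**Figure D5:**
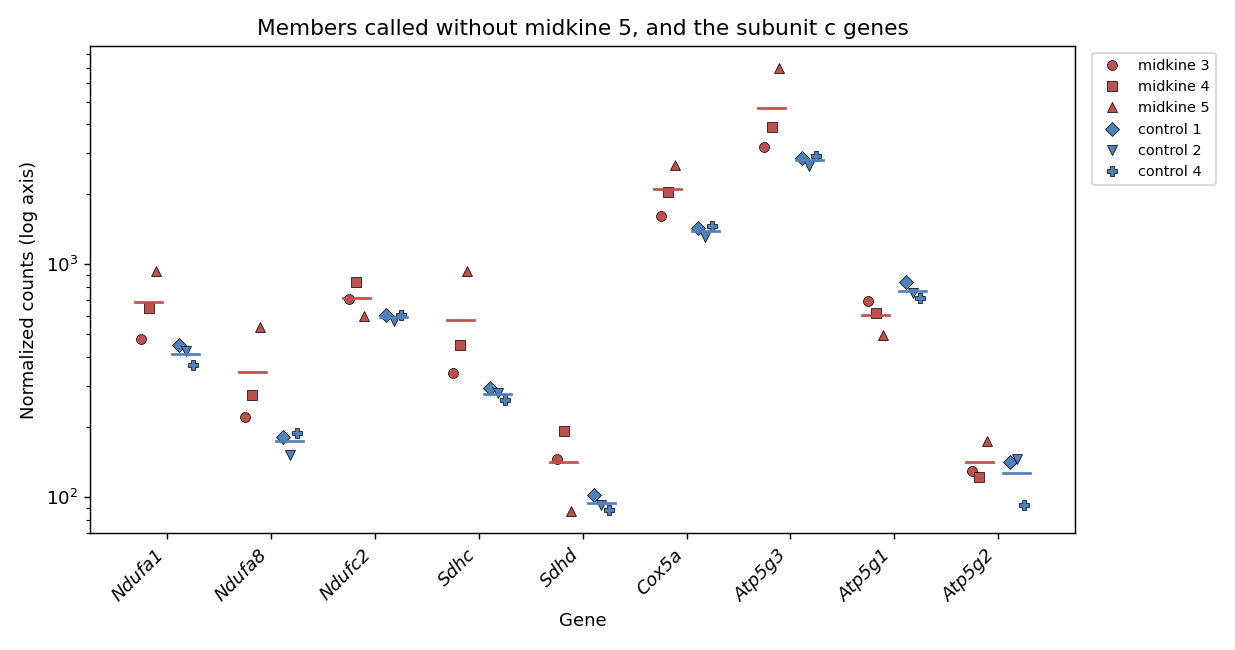
Normalized counts (log axis) of the nuclear-encoded members with an adjusted p under 0.05 without midkine 5 and of the subunit c genes; each point is a library and each bar a group mean, with midkine left of control. Atp5g3 lies above and Atp5g1 below the controls in all midkine libraries, and Sdhd and Ndufc2 are at control level in midkine 5.

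Of the other complex V members, Atp5f1, subunit b of the stator stalk, was at 849, 1002 and 1449 normalized counts in midkine 3, 4 and 5, against 825, 778 and 831 in control 1, 2 and 4, with no overlap. Atp5j, coupling factor F6 of the same stalk, was at 356, 419 and 785 normalized counts in midkine 3, 4 and 5, against 339.5, 358 and 315 in control 1, 2 and 4, with midkine 3 inside the control range. Atp5b, the catalytic beta subunit, named after its values were seen, was at 1721, 1881 and 4015 normalized counts in midkine 3, 4 and 5, against 1751, 1744 and 1753 in control 1, 2 and 4. Its controls lay close together, midkine 3 and 4 were near them, and midkine 5 was 2.29-fold above their mean. Atp5k, subunit e of the membrane part, was at 2688, 2296 and 2874 normalized counts in midkine 3, 4 and 5, against 2869, 2635 and 2537 in control 1, 2 and 4, with overlap. Over the 17 members the median log2 fold change was 0.15 with all libraries and −0.012 without midkine 5.

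The promoters of the nuclear-encoded members were read because these genes are known to share binding sites for NRF1, for ETS factors such as GABP and for YY1. In RefSeq promoters on GRCm38.p6, from 250 bases before to 50 after the start, 69 promoters of 64 member genes were found. The NRF1 letters GCGCANGCGC, on either strand, were in 18 of these 69 (26.1%) and in 1512 of all 32851 promoters (4.60%). The ETS letters CCGGAAG were in 16 (23.2%) and in 2910 of all (8.86%), and the YY1 core letters ATGGCGG in 11 (15.9%) and in 1332 of all (4.05%). At least 1 of the 3 was in 38 (55.1%), against 5077 of all promoters (15.5%). The motifs were searched apart, so overlaps between them were counted for each. The promoters of Sdhd and Ndufa8, which rose without midkine 5, are printed with the matched letters in capitals.
Sdhd, chr9:50603800-50604099, minus strand: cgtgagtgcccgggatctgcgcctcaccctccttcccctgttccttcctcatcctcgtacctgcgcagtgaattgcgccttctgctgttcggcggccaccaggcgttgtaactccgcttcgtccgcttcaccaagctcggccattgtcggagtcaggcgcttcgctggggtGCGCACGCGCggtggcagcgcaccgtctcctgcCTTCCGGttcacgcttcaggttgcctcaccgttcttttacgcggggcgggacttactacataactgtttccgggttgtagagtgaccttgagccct
Ndufa8, chr2:36049289-36049588, minus strand: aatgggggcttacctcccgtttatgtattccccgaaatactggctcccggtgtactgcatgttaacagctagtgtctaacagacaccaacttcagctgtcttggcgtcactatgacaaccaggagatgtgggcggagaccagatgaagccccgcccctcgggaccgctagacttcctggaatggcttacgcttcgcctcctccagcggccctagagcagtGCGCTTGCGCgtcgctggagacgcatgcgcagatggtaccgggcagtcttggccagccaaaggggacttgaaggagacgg
Of the other genes that rose in that fit, Atp5g3 held an NRF1 match, Ndufa1 a YY1 match, the windows of Ndufc2 and Cox5a held none of the 3 motifs, and Sdhc was not matched to the table. A match is a run of letters and no evidence of binding, and genes with and without a match were among those that rose.

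Genes that build, regulate or feed the chain were read from lists of known members. Of the genes in which limma without midkine 5 passed the threshold, the lists held few, beside 9.86% of all genes that rose and 8.53% that fell. Of 6 other subunits and cytochrome c, 0 rose and 1 fell, Atpif1, the inhibitor of the ATP synthase. It was at 1730.4, 1621 and 1612 normalized counts in midkine 3, 4 and 5, against 2168, 2123 and 2370.0 in control 1, 2 and 4, below all controls, with an adjusted p of 0.00774 in limma (0.000761 to 0.461 over all settings). Of the assembly factors, 0 of 17 passed for complex I, 0 of 4 for complex II and 0 of 4 for complex V in limma or edgeR without midkine 5. At an unadjusted p under 0.05 these lists held 4 lower, 1 higher and 0, beside 16% of all genes higher and 15.3% lower. In complex III 1 of 6 fell, Bcs1l, which inserts the Rieske protein, and of 21 for complex IV 1 rose, Coa5, and 1 fell, Cmc2. Bcs1l was at 56.1, 45.4 and 58.1 normalized counts in midkine 3, 4 and 5, against 72.8, 82.8 and 79.9 in control 1, 2 and 4, and Coa5 at 473, 564 and 984 in midkine 3, 4 and 5, against 389, 414 and 361 in control 1, 2 and 4. Both had groups that did not overlap.

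Of 30 genes for mitochondrial DNA replication, transcription and RNA processing, 0 rose and 0 fell in limma or edgeR without midkine 5, 1 lay lower at an unadjusted p under 0.05, and their median log2 fold change was −0.072 over 6 libraries and −0.046 without midkine 5. Of 8 regulators of nuclear respiratory genes, 1 fell, Gabpb2, a beta subunit of GABP. It was at 428, 452 and 384 normalized counts in midkine 3, 4 and 5, against 542, 589 and 616 in control 1, 2 and 4, with an adjusted p of 0.0145 in limma without midkine 5 (0.00651 to 0.452 over all settings). Of 14 citric acid cycle genes 0 rose and 1 fell, Idh2. Of 15 import and chaperone genes Timm50 and Hspd1 fell and 1 rose, Vdac2, a pore of the outer membrane. Vdac2 was at 1521, 1858 and 2279 normalized counts in midkine 3, 4 and 5, against 1073, 1066 and 1171 in control 1, 2 and 4, above all controls, with a log2 fold change of 0.61 ± 0.11 (SE) and an adjusted p of 0.000725 without midkine 5 (1.36e-05 to 0.386 over all settings).

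Marker genes of blood and stromal cell types also differed between the groups, though not each list in every midkine library. Of markers tested, 9 of 10 for monocytes and macrophages, 7 of 11 for neutrophils, 7 of 7 for mast cells, basophils and eosinophils, 6 of 7 for B cells and 1 of 5 for erythroid cells rose in limma without midkine 5. Of all genes, 9.86% rose and 8.53% fell in that fit. In the same fit 6 of 9 for conventional dendritic cells, 3 of 7 for plasmacytoid dendritic cells, 4 of 5 for stroma and 5 of 8 for mitosis fell, and no list had calls in both directions. Their summed normalized counts ranged from 33692 to 55421 with midkine and 26659 to 36487 in the controls for monocytes and macrophages, and from 180236 to 193497 with midkine and 126061 to 140884 in the controls for neutrophils. For mast cells, basophils and eosinophils they ranged from 1749 to 2707 with midkine and 964 to 1211 in the controls, for B cells from 1254 to 2735 with midkine and 1189 to 1669 in the controls, and for erythroid cells from 114 to 192 with midkine and 51.3 to 84.9 in the controls. For conventional dendritic cells they ranged from 1097 to 1243 with midkine and 1852 to 2069 in the controls, for plasmacytoid dendritic cells from 7716 to 7868 with midkine and 9534 to 11067 in the controls, for stroma from 338 to 522 with midkine and 608 to 1096 in the controls, and for mitosis from 9535 to 10816 with midkine and 15405 to 15966 in the controls. In midkine 5 the sums for monocytes and macrophages and for B cells lay within the control range, and those of the other lists lay outside it. Sums weigh abundant markers most, and medians over the markers read otherwise for some lists. For monocytes and macrophages the median difference from the control mean was 0.77 (log2) in midkine 5, against −0.01, 0.15 and −0.11 in control 1, 2 and 4. For stroma it was 0.04 in midkine 5, within the −0.35 to 0.29 of the controls. For mast cells, basophils and eosinophils it was 0.491, just within the −0.187 to 0.493 of the controls. None of these markers was at 0 in all libraries, and Fcer1a, Alas2, Slc4a1 and Klf1 were among those not analysed here. The part of these cell types in the members' values was not tested.

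What the nuclear-encoded members shared beyond their function was read from GENCODE M21. Across the 78 members tested, the GC content of the last 300 bases had a Pearson correlation of −0.36 and a Spearman correlation of −0.37 with the log2 fold change without midkine 5, and of −0.0069 and −0.012 with the difference of midkine 5 from the control mean. Transcript length had Pearson correlations of −0.031 and −0.14 with the same measures. These points share their libraries, and the values are a description. A near-identical 3′ end in another gene exists for 19 of the 79 nuclear-encoded members, and 24 share an exon with a gene on the opposite strand, so their reads may be split or pooled.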

How the data were processed

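RNA was measured with a 3′ mRNA kit (QuantSeq FWD, per the labels' protocols) in 6 libraries, 3 with midkine and 3 controls. Build GRCm38 (mm10) and the tools TopHat2 2.0.10, Bowtie 1.0.0, HTSeq, DESeq2, SAMtools 0.1.19 and FastQC 0.11.0 are listed in the submitters' processing notes. For the annotation release, strand setting, gene filter and treatment of multiply mapped reads, nothing is given in those sources. The deposited values are a signal, normalized counts per gene symbol that the authors made by dividing counts by a size factor, as far as the values show. Dividing by each library's step gave whole reads for 100% of values within 0.01 reads, with size factors from 0.947 to 1.10. Besides these 6 libraries there were 0 further per-sample columns. A count of 3 reads, taken as the floor, was 5.01e-05% of the smallest library, and intervals and floors cover counting error only.

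The test was limma 3.58.1 (with trend, R 4.3.3) on log2(normalized count + 1) over genes with a mean of at least 5, two-sided, with Benjamini-Hochberg adjustment over all genes tested and a threshold of 0.05. Fold changes are midkine minus control on that scale, which understates changes of low genes. Means are given ± SD. The fit was repeated without midkine 5 (13547 genes tested). Recovered reads were tested with edgeR 4.0.16 and DESeq2 1.42.0, and other settings changed the pseudocount, filter, scaling, variance moderation, library weights and libraries. The fit was tested on simulated data. Sequences come from GENCODE M21 (mitochondrial genes) and RefSeq promoters, and near-identical ends are those with at least 97% identity over at least 100 of the last 300 bases. A single GENCODE transcript was used for each gene, the longest of those with the best principal rank. It need not be the one these cells used.

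Members and lists were chosen with earlier results of these data known. Named were all mitochondrial members, in each complex the 4 nuclear-encoded members with the smallest unadjusted p over 6 libraries and the 2 highest, the isoform families, and up to 2 genes of each further list. Ndufc2, Ndufa12, Ndufs6, Atp5b, Cmc2, Idh2, Timm50, Hspd1 and the mitochondrial tRNA genes were named after their values were seen. The promoter motifs were chosen with these results in view, and the YY1 letters are a shorter core taken after a longer form had been searched, which matched fewer promoters both of members and of all genes.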

Additional observations from a re-analysis of the deposited data

How the results depend on the processing

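No paired analysis was possible because the groups share only replicate number 4, so a replicate block could not be fitted. Depth does not separate the groups, and a limit of the calls made without midkine 5 is that they rest on 2 midkine libraries. The 0 genes called over 6 libraries became 10 with a pseudocount of 10, 9 with no filter, 7 with TMM scaling, 16 with quantile normalization, 12 when scaled by total reads, 13 by total reads without mt- genes, 9 in edgeR, 678 in DESeq2, 5076 with limma array weights, 2506 in edgeR without midkine 5 and 0 to 2492 when 1 library was left out. Calls among nuclear-encoded members came to 25 with array weights, 7 in edgeR without midkine 5 and 0 to 7 when 1 library was left out, and among mitochondrially encoded members to 1, 1 and 0 to 1. The lower end of each of these ranges came from leaving out a library other than midkine 5, and the upper end from leaving out midkine 5.

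The mitochondrial median was 0.026 (log2) with array weights, −0.061 in edgeR without midkine 5 and −0.97 to −0.046 when 1 library was left out, and the mitochondrial minus nuclear median was −0.044, −0.12 and −1.28 to −0.12. When 1 library was left out, medians ranged from 0.074 to 0.32 for nuclear-encoded members, 0.10 to 0.36 for complex I, 0.21 to 0.36 for II, 0.056 to 0.51 for III, 0.13 to 0.30 for IV and −0.012 to 0.25 for V. The cause of these moves was not tested.

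Of 58 named genes fitted under 20 settings, 15 changed the sign of their log2 fold change under some setting and 43 did not. Cox6b2 was −0.0086 with a pseudocount of 10, −0.016 by total reads, −0.052 by total reads without mt- genes, −0.065 in edgeR and −0.056 in DESeq2. Quantile normalization gave −0.069 for Ndufa2, −0.071 for Sdhb, −0.026 for Cox8a, −0.020 for Cox6a1 and −0.0998 for Cox4i1. Total reads gave −0.014 for Sdhb, and total reads without mt- genes −0.053 for Sdhb, −0.017 for Ndufa2 and −0.030 for Cox4i1. Array weights gave 0.22 for mt-Nd1, 0.24 for mt-Nd3, 0.063 for mt-Nd4, 0.026 for mt-Nd5, 0.011 for mt-Co1, 0.14 for mt-Atp6, −0.034 for Ndufa2, −0.067 for Cox4i1 and −0.033 for Atp5g2. In edgeR without midkine 5 mt-Nd1 was 0.17, mt-Nd3 0.32, mt-Nd4 0.041, mt-Atp6 0.155, Cox4i1 −0.022 and Atp5g2 −0.016. Leaving out 1 library gave ranges of −0.31 to 0.17 for mt-Nd1, −0.54 to 0.34 for mt-Nd3, −0.59 to 0.067 for mt-Nd4, −1.08 to 0.19 for mt-Atp6, −0.019 to 0.10 for Cox4i1, −0.042 to 0.28 for Atp5g2, −0.026 to 0.058 for Sdhb, −0.22 to 0.30 for Cox6b2, −0.11 to 0.054 for Atp5k and −0.74 to 0.28 for Cox7a1.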

Other observations

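Among the mitochondrial genes that are no members, 12 transfer RNA genes were tested, of which 2 fell and 1 rose in limma without midkine 5. Of all genes, 8.53% fell and 9.86% rose in that fit. The 14 transfer RNA genes with values took at most 0.00522% of the reads of a library, so these calls rest on few reads. All midkine libraries were below all controls for 3 of the 12 tested (mt-Ta, mt-Tg and mt-Ti) and above all controls for 1 (mt-Tl1), beside 15.3% and 15.5% of all genes. The gene of the alanine tRNA, mt-Ta (chrM:5018-5086 on GRCm38, minus strand), was at 5.80, 7.39 and 5.45 normalized counts in midkine 3, 4 and 5, against 32.8, 35.8 and 31.6 in control 1, 2 and 4. All midkine libraries, midkine 5 included, were below all controls, and the log2 fold change was −2.26 ± 0.29 (SE) with an adjusted p of 0.0530 in limma over 6 libraries and 0.000172 without midkine 5. Over all settings the adjusted p ranged from 6.87e-06 to 0.372, and the log2 fold change from −2.38 to −2.19 when 1 library was left out. The gene of the isoleucine tRNA, mt-Ti, was at 29.0, 27.4 and 26.3 normalized counts in midkine 3, 4 and 5, against 38.0, 68.5 and 45.4 in control 1, 2 and 4. Its adjusted p in limma was 0.172 over 6 libraries and 0.0438 without midkine 5 (0.0105 to 0.432 over all settings), and the log2 fold change without midkine 5 was −0.78 ± 0.26 (SE). The gene of the threonine tRNA, mt-Tt (chrM:15289-15355, plus strand), starts at the base after the end of mt-Cytb. It was at 74.4, 72.8 and 29.0 normalized counts in midkine 3, 4 and 5, against 25.6, 34.8 and 33.5 in control 1, 2 and 4. It rose without midkine 5, with a log2 fold change of 1.22 and an adjusted p of 0.00103 in limma (5.62e-05 to 0.562 over all settings), and midkine 5 lay within the control range.

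Both rRNA genes were lowest in midkine 5. For mt-Rnr1 all midkine libraries lay below all controls, as they did for 15.3% of all genes tested, and for mt-Rnr2 the groups overlapped. mt-Rnr1, the small rRNA, had a log2 fold change of −1.77 over 6 libraries with an adjusted p of 0.318 in limma, and −0.49 with 0.0467 without midkine 5 (0.0114 to 0.585 over all settings). mt-Rnr2, the large rRNA, had −1.38 with 0.368 over 6 libraries and −0.26 with 0.401 without midkine 5 (0.205 to 0.659 over all settings).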
